A study of Mus musculus with 8 samples.

Results

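The 9 genes described here are known in mouse tissues as targets of the nuclear receptor PPAR-alpha and act in the use of fatty acids as fuel or next to it: Acot1, Acot2, Acadl, Acadm, Acaa1b, Angptl4, Cpt1a, Pdk4 and Ehhadh. They were chosen by name, with earlier results of these data known, so their counts and medians beside those of all genes are descriptions and not tests. A probe set is the group of oligonucleotides on an array that reads 1 transcript. Every probe set which the platform annotation gives to 1 of these genes alone was taken. This gave 14 probe sets for 9 of the 18194 genes with such a probe set. Of these, 13 passed a filter on dim signal (a mean log2 signal of at least 5.20, the 40th percentile of all probe sets) and 1, for Angptl4, did not, and all 9 genes were among the 13119 genes tested. A further 3 probe sets that read a member together with a close relative are described separately.

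Expression was measured on 8 arrays of small intestinal tissue from C57BL/6 mice fed the AIN-76 diet. All mice carried the tumour-causing Min allele of Apc and loxP-flanked Spint1 on both chromosomes. Spint1 encodes HAI-1, a membrane-bound inhibitor of serine proteases. The 4 groups, each of 2 arrays, were tumours of HAI-1 deficient mice (Apc (Min/+)/Spint1 (flox/flox)/Vil-Cre), tumours of control mice (Apc (Min/+)/Spint1 (flox/flox), without Cre), non-tumour mucosa of HAI-1 deficient mice and non-tumour mucosa of control mice. The villin promoter drives Cre in the intestinal epithelium, so other cells of the tissue keep Spint1. Separate mice are not stated for the 2 arrays of a group, and neither is the age of the mice or whether tumour and mucosa arrays share mice, so p-values measure only the spread between these samples, which may be technical.

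Long-chain fatty acids enter mitochondria as carnitine esters made by CPT1 and are shortened there by beta-oxidation, a cycle whose first step is carried out by acyl-CoA dehydrogenases. Peroxisomes run a parallel cycle on very long chains and dicarboxylic acids. PPAR-alpha, activated by fatty acids and paired with a retinoid X receptor, raises genes of both cycles, and in the small intestine it is active mainly in the absorptive enterocytes of the villus, which meet dietary fat.

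The labels were checked first. Spint1 had log2 signals of 11.76 and 11.84 in HAI-1 deficient tumours, against 12.75 and 13.06 in control tumours, and of 12.46 and 12.25 in HAI-1 deficient mucosa, against 12.87 and 13.00 in control mucosa. Every deficient array was thus below every control array, although Spint1 itself was not called in either tissue (-1.10 ± 0.24 log2 in tumours, adjusted p = 0.779, and -0.58 ± 0.24 in mucosa, adjusted p = 0.271; differences are given throughout with the SE of a limma fit, and p-values are two-sided and adjusted over all tested genes by the Benjamini-Hochberg method). Where its probe set lies relative to the loxP sites is not known here. The tissue carried the markers of its label: 11 of 12 enterocyte markers had a probe set and none was below the filter on all arrays. Their linear signals were added up for each array, a sum in which the brightest probe sets weigh most. The log2 of this sum was 16.87 to 17.36 in deficient tumours and 17.25 to 17.33 in control tumours. In mucosa it was 17.83 to 17.99 in deficient and 17.89 to 17.92 in control mice. On control tumour replicate 2 the 3' Gapdh signal was 25.9 times the 5' signal, against 0.803 to 1.77 times on the remaining arrays, and poly-A spike-in controls were brighter on 3 arrays (8.12 to 8.51 log2; replicate 2 of deficient mucosa, control mucosa and deficient tumours) than on the other 5 (6.36 to 7.12).

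In non-tumour mucosa, HAI-1 loss went with a higher level of 1 of the 9 genes, the cytosolic thioesterase gene Acot1, and no member fell. Of all tested genes, 0.899% (118 of 13119) were called higher in deficient mucosa and 0.152% (20) lower, a gene being called at an adjusted p under 0.05. The fitted differences of the 9 members ran from -0.46 to 3.14 log2, with 6 above 0, and their median of 0.51 stood beside a median of 0.11 over all tested genes. In tumours, limma called 0 of the 9 genes between deficient and control mice, and 0 of the 9 had an unadjusted p under 0.05. The background there was 0% in either direction, with 802 of the 13119 genes at an unadjusted p under 0.05. The members' differences in tumours ran from -0.51 to 0.29 log2, and the smallest adjusted p was 0.783.

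Between tumour and non-tumour tissue, 4 of the 9 genes were called in control mice, where Acot1 rose and Angptl4, Acaa1b and Acadm fell. The background was 21.2% of all genes higher (2775) and 7.64% lower (1002) in control tumours. In HAI-1 deficient mice, Acaa1b and Angptl4 fell and no member rose, beside 2.45% of genes higher (321) and 1.75% lower (230). The members' median difference was -1.02 log2 in deficient mice and -0.98 in control mice, against 0.18 and 0.24 over all tested genes. In these bulk samples, fewer cells of a type and less RNA per cell cannot be told apart. The comparison of deficient with control mucosa and that of control tumours with control mucosa share the same 2 control mucosa arrays, so the members' values in both move with those arrays.

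**Figure D1:**
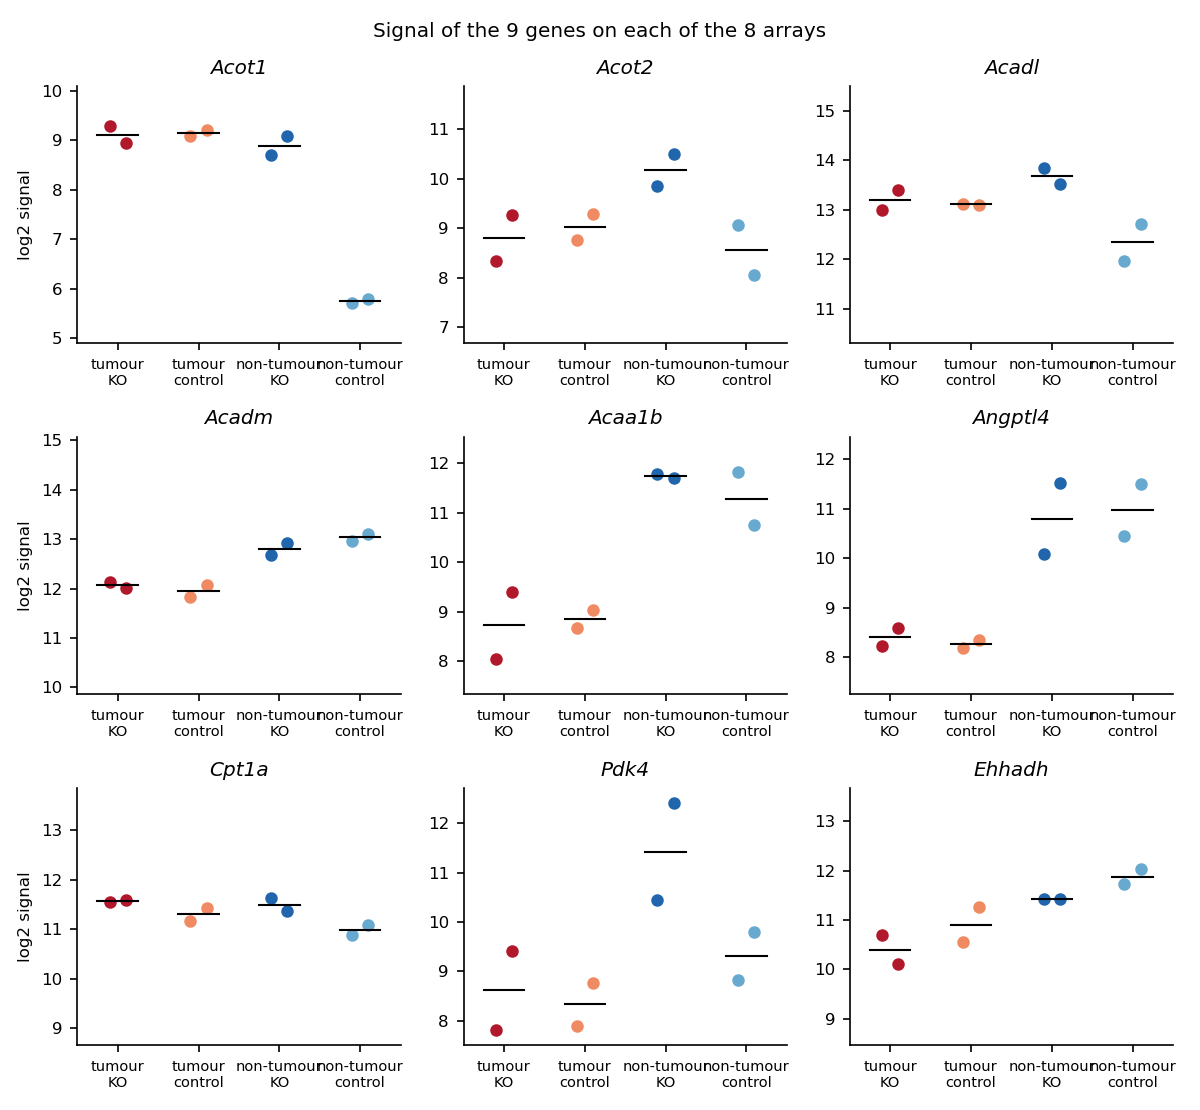
Log2 signal (vertical axes, each spanning the same number of log2 units) of the probe set used for each of the 9 genes in the 4 groups; each point is 1 array and each bar a group mean. Acot1 is low on the 2 control mucosa arrays (5.71 and 5.79) and lies between 8.70 and 9.28 on the other 6, whereas Angptl4 and Acaa1b are lower on all 4 tumour arrays than on all 4 mucosa arrays.

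Acot1 and Acot2 encode acyl-CoA thioesterases, which cleave fatty acyl-CoA to free fatty acid and coenzyme A, in the cytosol (Acot1) and in mitochondria (Acot2). Acot1 had log2 signals of 8.70 and 9.09 in deficient mucosa, against 5.71 and 5.79 in control mucosa. Both deficient arrays lay far above both control arrays. The difference was 3.14 ± 0.26 log2 (SE, n = 2 per group), 8.82-fold, with an adjusted p of 0.0139. Both control mucosa values passed the filter value only narrowly. They were also below the median log2 signals of their own arrays (6.12 and 5.84, in the same order). The size of the difference thus rests on dim signals, which carry large errors, and is uncertain to that extent. In tumours Acot1 had 9.28 and 8.94 in deficient mice, against 9.09 and 9.22 in control mice. These arrays overlapped, with a difference of -0.04 log2 and a 95% interval of -0.64 to 0.56 (adjusted p = 0.975). Control tumours thus stood above control mucosa by 3.41 ± 0.26 log2, 10.6-fold (adjusted p = 0.000866), a size measured from the same dim control mucosa signals. Deficient tumours differed from deficient mucosa by 0.22 ± 0.26 log2, with overlapping arrays (adjusted p = 0.636). The HAI-1 difference in tumours less the one in mucosa was -3.18 ± 0.36 log2 (adjusted p = 0.18), and no gene was called in that comparison, where the background was 0% in either direction and 1211 genes had an unadjusted p under 0.05. No tested gene had a smaller adjusted p there, but the value was not particular to Acot1: the smallest among the adipocyte markers tested was also 0.18.

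The tumour rise of Acot1 in control mice held without any 1 of the 8 arrays, at adjusted p values of 0.00199 to 0.00743. Its rise with HAI-1 loss in mucosa lost the call, at nearly the same size, without either deficient mucosa array (adjusted p = 0.08 without replicate 1 and 0.0873 without replicate 2) or either control mucosa array (0.0521 without replicate 1 and 0.0536 without replicate 2). It also lost the call when dim probe sets were kept (adjusted p = 0.0979).

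Acot2 had 9.86 and 10.51 log2 in deficient mucosa, against 9.06 and 8.05 in control mucosa. The deficient arrays were the highest of the 8 for this gene, and the difference of 1.63 ± 0.47 log2 did not pass the test (adjusted p = 0.134). Its tumour arrays, at 8.33 and 9.26 in deficient mice and 8.76 and 9.29 in control mice, overlapped each other and the control mucosa. Tumour minus mucosa was -1.39 ± 0.47 log2 in deficient mice (adjusted p = 0.128) and 0.47 ± 0.47 in control mice (adjusted p = 0.488). A second Acot2 probe set, 1422996_at, was dimmer; in control mice its tumour minus mucosa difference was -1.72 ± 0.84 log2 (adjusted p = 0.182 over all probe sets), or -0.78 with overlapping arrays when signals below the filter value were raised to it.

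Acot1 and Acot2 are close copies that lie near each other on chromosome 12, and 1 probe set, 1422997_s_at, is annotated to both. It gave 8.40 and 8.67 log2 in deficient mucosa, against 6.34 and 4.97 in control mucosa, and 8.57 and 8.62 in deficient tumours, against 8.72 and 7.96 in control tumours. The shape was that of Acot1: low on the control mucosa arrays and higher on all others. Control tumours were above control mucosa by 2.69 ± 0.48 log2 (adjusted p = 0.0123), or 2.57 with the array below the filter value of 5.20 raised to it. Deficient minus control mucosa was 2.88 ± 0.48 (adjusted p = 0.0905). Signal that is shared by these copies could be split between them, so the separate values of Acot1 and Acot2 are uncertain to that extent.

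The upstream sequences of these neighbours and of the 2 members with a core motif of the receptor are printed because Acot1 and Acot2 are close copies whose signals differed, and because the core motif AGGTCA is the unit that PPAR-alpha recognises. PPAR-alpha with its partner binds 2 copies of AGGTCA in a row with 1 base between them. The table of RefSeq upstream windows used here (GRCm38.p6) matched 8 of the 9 genes, all but Angptl4, and the 250 bases before the start it uses for each were searched on both strands. Capitals mark an exact AGGTCA on either strand, so that it reads TGACCT where it lies on the other strand. Acot1 lies at chr12:84009252-84009501 (plus strand), Acot2 at chr12:83987611-83987860 (plus strand), Acadm at chr3:153944644-153944893 (minus strand) and Cpt1a at chr19:3323051-3323300 (plus strand), each written 5′ to 3′ on the strand of its gene.
Acot1: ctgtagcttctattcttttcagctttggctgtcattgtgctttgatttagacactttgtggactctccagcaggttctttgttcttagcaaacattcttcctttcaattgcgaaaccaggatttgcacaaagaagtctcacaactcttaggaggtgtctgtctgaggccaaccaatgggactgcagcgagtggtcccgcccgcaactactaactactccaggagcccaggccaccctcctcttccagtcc
Acot2: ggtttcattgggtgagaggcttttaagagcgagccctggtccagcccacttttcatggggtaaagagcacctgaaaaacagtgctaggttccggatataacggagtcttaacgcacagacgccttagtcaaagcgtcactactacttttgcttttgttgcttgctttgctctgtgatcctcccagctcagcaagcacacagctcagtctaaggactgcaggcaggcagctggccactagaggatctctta
Acadm: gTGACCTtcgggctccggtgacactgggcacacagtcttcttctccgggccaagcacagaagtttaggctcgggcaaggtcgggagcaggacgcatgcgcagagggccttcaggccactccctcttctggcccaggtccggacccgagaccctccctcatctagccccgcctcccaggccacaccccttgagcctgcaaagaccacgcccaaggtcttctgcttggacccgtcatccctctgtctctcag
Cpt1a: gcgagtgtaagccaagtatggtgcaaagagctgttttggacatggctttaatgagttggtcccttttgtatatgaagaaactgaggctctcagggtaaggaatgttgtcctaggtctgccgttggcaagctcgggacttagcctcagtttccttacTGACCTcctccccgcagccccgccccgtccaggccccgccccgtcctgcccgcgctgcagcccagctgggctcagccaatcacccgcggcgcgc
The core motif ends 243 bases before the start used in Acadm and 88 bases before that in Cpt1a. RefSeq places the first base of the Cpt1a locus at position 3322326 of chromosome 19, so the Cpt1a window lies inside that locus, before a later start, whereas the other 7 windows adjoin theirs. An exact core motif was thus found in 2 of 8 members (25%), against 14.0% of all 32851 windows of the same length. Among the 13488 windows of genes tested here the share was 11.3%. The paired motif, with at most 2 mismatches, was found in 0 of 8 members, in 3.24% of all windows and in 2.65% of those of genes tested. The searches overlap, since a paired match can hold an exact core motif. A match is a match of letters and no more, and the windows leave out sites farther away.

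Cpt1a encodes the liver-type carnitine palmitoyltransferase of the outer mitochondrial membrane, which controls the entry of long-chain fatty acids. It had 11.63 and 11.36 log2 in deficient mucosa, against 10.88 and 11.09 in control mucosa, and 11.55 and 11.58 in deficient tumours, against 11.16 and 11.44 in control tumours. Both deficient groups lay above their controls without overlap, by 0.51 ± 0.25 log2 in mucosa (adjusted p = 0.341) and 0.27 ± 0.25 in tumours (adjusted p = 0.809), and neither difference passed the test. Tumour minus mucosa was 0.07 log2 in deficient mice and 0.31 in control mice, and neither was called (adjusted p = 0.891 and 0.373). The other Cpt1a probe sets differed from this. 1434866_x_at gave -1.31 ± 0.63 log2 in deficient and 0.43 ± 0.63 in control mice (adjusted p = 0.294 and 0.666 over all probe sets). 1438156_x_at gave -0.16 ± 0.58 and 1.29 ± 0.58 (0.91 and 0.15), the last without overlap of arrays.

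Acadl and Acadm encode the long-chain and medium-chain acyl-CoA dehydrogenases, which start each turn of the mitochondrial cycle. Acadl had 13.84 and 13.52 log2 in deficient mucosa, against 11.97 and 12.72 in control mucosa, and 13.00 and 13.39 in deficient tumours, against 13.13 and 13.11 in control tumours. As for Acot1, the control mucosa arrays were the lowest of the 8. Deficient minus control mucosa was 1.34 ± 0.32 log2 (2.53-fold, adjusted p = 0.0891), and control tumour minus control mucosa was 0.77 ± 0.32 (adjusted p = 0.108). The first passed the threshold when the variance was modelled with a trend on signal and robust moderation (adjusted p = 0.0321), but in no other of 10 alternative settings (adjusted p up to 0.208). In deficient mice, tumour minus mucosa was -0.48 ± 0.32 (adjusted p = 0.383).

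Acadm had another pattern, by tissue. Its log2 signals were 12.14 and 12.02 in deficient tumours, against 12.67 and 12.93 in deficient mucosa, and 11.83 and 12.07 in control tumours, against 12.97 and 13.10 in control mucosa. All 4 tumour arrays were below all 4 mucosa arrays. Acadm fell by 1.08 ± 0.24 log2 in control tumours (2.12-fold, adjusted p = 0.0148), while in deficient tumours the difference of -0.72 ± 0.24 log2 was not called (adjusted p = 0.123). The call in control mice was lost without control mucosa replicate 1 (adjusted p = 0.0561) or 2 (0.0723), or control tumour replicate 1 (0.0796). With HAI-1 loss Acadm differed by -0.23 ± 0.24 log2 in mucosa and by 0.13 ± 0.24 in tumours (adjusted p = 0.688 and 0.9). The tumour effects of the 2 genotypes differed by 0.36 ± 0.34 log2, which did not pass the test (adjusted p = 0.781).

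Acaa1b and Ehhadh belong to the peroxisomal cycle: Acaa1b encodes a 3-ketoacyl-CoA thiolase, which releases acetyl-CoA in the last step, and Ehhadh the bifunctional enzyme of the middle steps. Acaa1b had 8.05 and 9.39 log2 in deficient tumours, against 11.78 and 11.70 in deficient mucosa, and 8.66 and 9.03 in control tumours, against 11.81 and 10.74 in control mucosa. All tumour arrays were more than 1 log2 unit below all mucosa arrays. The fall was 3.02 ± 0.50 log2 in deficient mice (8.12-fold, adjusted p = 0.0306) and 2.43 ± 0.50 log2 in control mice (5.39-fold, adjusted p = 0.0119). In deficient mice the call was lost without deficient mucosa replicate 1 (adjusted p = 0.123) or 2 (0.105), either control mucosa replicate (0.0523 each) or deficient tumour replicate 1 (0.0745). In control mice it was lost without control mucosa replicate 1 (0.0655) or control tumour replicate 1 (0.0631). HAI-1 loss gave differences of 0.46 ± 0.50 log2 in mucosa (adjusted p = 0.709) and -0.13 ± 0.50 in tumours (adjusted p = 0.957), with overlapping arrays in both.

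A pair of probe sets read Acaa1b together with its copy Acaa1a. The first, 1416946_a_at, fell by 2.24 ± 0.30 log2 in control tumours (adjusted p = 0.00581), and the second, 1416947_s_at, by 1.26 ± 0.25 log2 (adjusted p = 0.0162). In deficient mice their tumour arrays were also below the mucosa arrays, with differences of -1.37 ± 0.30 and -1.29 ± 0.25 log2 that were not called (adjusted p = 0.0887 and 0.074). Acaa1a, by its own probe set, fell by 2.08 ± 0.40 log2 in deficient tumours (adjusted p = 0.0393) and by 1.94 ± 0.40 in control tumours (adjusted p = 0.0118).

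Ehhadh had 10.69 and 10.10 log2 in deficient tumours, against 11.41 and 11.42 in deficient mucosa, and 10.55 and 11.26 in control tumours, against 11.72 and 12.04 in control mucosa. Every tumour array was below every mucosa array, as for Acadm and Acaa1b. The differences of -1.02 ± 0.33 log2 in deficient mice (adjusted p = 0.118) and -0.98 ± 0.33 in control mice (adjusted p = 0.062) were not called. That in control mice passed with a stricter filter at the 60th percentile (adjusted p = 0.0417) and with the variance trend (0.0328), but in no other of 10 alternative settings (adjusted p up to 0.126). HAI-1 loss gave -0.46 ± 0.33 log2 in mucosa and -0.51 ± 0.33 in tumours (adjusted p = 0.535 and 0.783).

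Pdk4 encodes the pyruvate dehydrogenase kinase that turns cells from glucose to fatty acid oxidation. It had 10.44 and 12.41 log2 in deficient mucosa, against 8.83 and 9.80 in control mucosa, and 7.81 and 9.42 in deficient tumours, against 7.90 and 8.76 in control tumours. The deficient mucosa arrays were the highest of the 8 but lay almost 2 log2 units apart. The SE, which pools the spread within all 4 groups, was 0.77 for each difference. Deficient minus control mucosa was 2.11 ± 0.77 log2 (4.32-fold, adjusted p = 0.213). Tumour minus mucosa was -2.81 ± 0.77 log2 in deficient mice (6.99-fold, adjusted p = 0.0832) and -0.98 ± 0.77 in control mice (adjusted p = 0.372). Within arrays of low and of high spike-in signal, 1 array against 1, Pdk4 differed by 1.61 and 2.61 log2 between deficient and control mucosa. Deficient tumour minus mucosa was -2.63 and -2.98 log2 in the same classes. With the spike-in class in the model it was called (adjusted p = 0.0407), as it was with the filter at the 60th percentile (0.0454). Over 10 alternative settings of the limma fit its adjusted p ran from 0.0393 to 0.187, so the call depended on the setting.

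Angptl4 encodes a secreted inhibitor of lipoprotein lipase, and so limits the uptake of fatty acids from lipoproteins in blood. It had 8.22 and 8.60 log2 in deficient tumours, against 10.08 and 11.51 in deficient mucosa, and 8.19 and 8.35 in control tumours, against 10.44 and 11.51 in control mucosa. All 4 tumour arrays lay close together and well below the mucosa arrays, among which those of high spike-in signal were the higher in both genotypes. Angptl4 fell by 2.39 ± 0.52 log2 in deficient tumours (5.24-fold, adjusted p = 0.0495) and by 2.70 ± 0.52 log2 in control tumours (6.52-fold, adjusted p = 0.00916). The first call was lost without any 1 of the 8 arrays (adjusted p = 0.0607 to 0.145), and the second held without each of them (0.00705 to 0.0479). HAI-1 loss gave -0.18 ± 0.52 log2 in mucosa and 0.14 ± 0.52 in tumours (adjusted p = 0.909 and 0.955), with overlapping arrays. The other Angptl4 probe set, 1453410_at, was dim, with 0.33 to 5.83 log2 over the 8 arrays and a mean under the filter value, and was not tested by itself. When it was averaged with the first, the control tumour difference was -0.99 log2 and not called (adjusted p = 0.342).

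**Figure D2:**
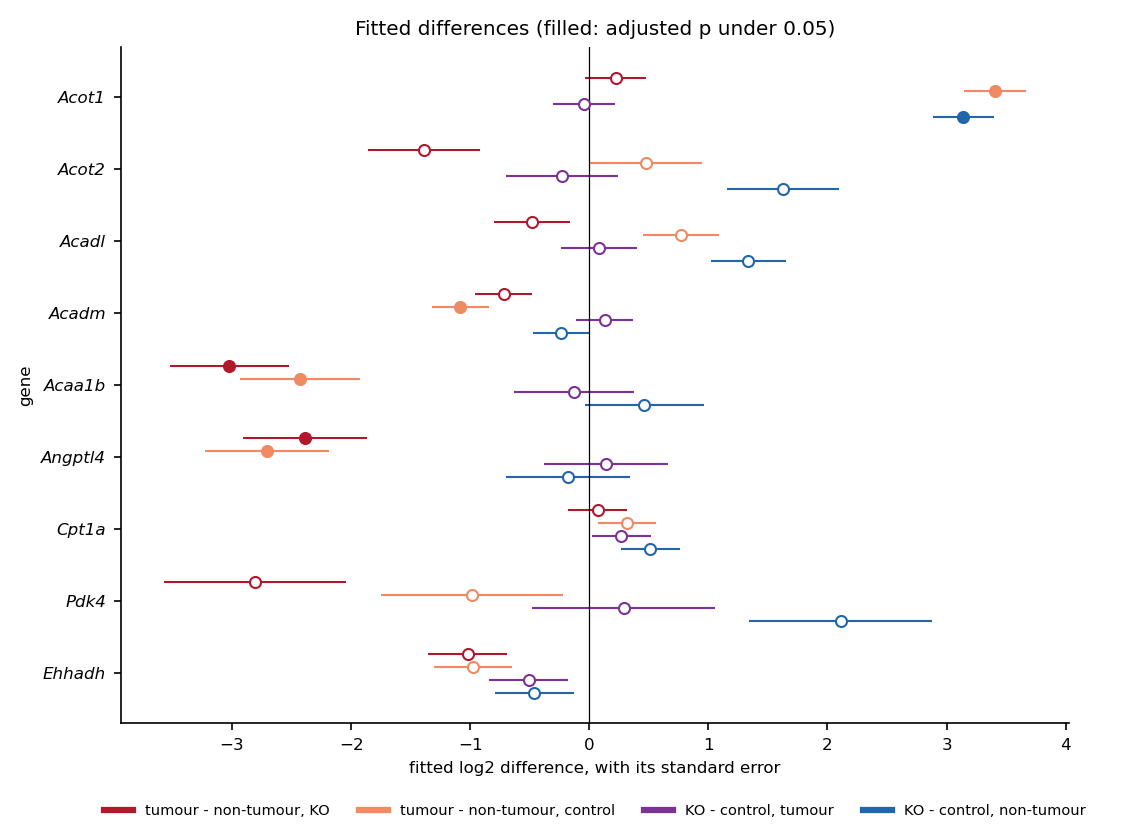
Fitted log2 differences of the 9 genes (points, with the standard error of the fit as bars) for tumour minus non-tumour tissue in HAI-1 deficient (KO) and control mice and for deficient minus control in tumours and non-tumour mucosa; filled points were called at an adjusted p under 0.05. The 9 differences with HAI-1 loss in tumours lie between -0.51 and 0.29, whereas Acot1 stands at 3.41 in control tumours and 3.14 in deficient mucosa and at 0.22 in deficient tumours.

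The members did not form a single pattern over the 8 arrays. Pearson's r, as a description over 8 arrays of 4 groups, was 0.96 between Acadm and Angptl4, 0.87 between Acadm and Ehhadh and 0.86 between Acadm and Acaa1b. It was 0.83 between Acadl and Cpt1a, 0.78 between Acot1 and Cpt1a and 0.76 between Acot1 and Acadl. Across these sets the signs were negative, with -0.72 between Acot1 and Acadm and -0.70 between Acot1 and Ehhadh. The values of Acadl were weaker, from -0.37 with Ehhadh to -0.05 with Acaa1b. Acot2 and Pdk4, both highest in deficient mucosa, had an r of 0.75. Pdk4 did not stand apart from the set of Acadm. Its r was 0.76 with Angptl4, 0.74 with Acaa1b, 0.62 with Acadm and 0.39 with Ehhadh. Such values follow the differences between group means and carry no test.

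The genes most like each member over the 8 arrays, among all tested genes with a descriptive symbol, are given with Pearson's r. For Acot1 they were Ctnnal1, Nucb2 and Bbs7 (r of 0.983, 0.983 and 0.982). Nucb2, which encodes the precursor of the peptide nesfatin, had 8.57 and 8.56 log2 in deficient mucosa against 7.32 and 7.16 in control mucosa, and 8.61 to 8.90 in the tumours. For Acadl they were Bicdl1, Plscr1 and Scd1 (r of 0.985, 0.983 and 0.978), of which Scd1 encodes a stearoyl-CoA desaturase. Scd1 had 12.95 and 11.17 log2 in deficient mucosa against 7.12 and 8.79 in control mucosa. For Acaa1b they were Slc47a1, Sec16b and Fbp1 (r of 0.987, 0.980 and 0.976), the last a gluconeogenic enzyme gene, and for Ehhadh Cd302, Adh6a and Abat (0.993, 0.987 and 0.986). For Acadm they were Spata2, Bco2 and Mgat3 (0.996, 0.984 and 0.982), of which Bco2 encodes a carotenoid-cleaving enzyme of mitochondria. The nearest gene had an r of 0.990 for Angptl4 (Tor1a), 0.965 for Cpt1a (Zdhhc13), 0.962 for Pdk4 (Cyp2j9) and 0.961 for Acot2 (Uvssa).

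Where a gene had several probe sets, they did not always give the same result. The 3 Cpt1a probe sets all gave a positive difference for HAI-1 loss in mucosa (0.51 to 0.79 log2), but in tumours 1460409_at gave 0.27 ± 0.25 log2 whereas 1434866_x_at gave -0.94 ± 0.63 and 1438156_x_at gave -0.80 ± 0.58. Neither negative value was called (adjusted p = 0.746 and 0.758 over all probe sets). The dim second Acadl probe set, 1448988_at, gave 0.99 ± 0.39 log2 for HAI-1 loss in mucosa (adjusted p = 0.316), but both control mucosa arrays were below the filter value there, and with such signals raised to it the difference was 0.52. Probe sets ending in _x_at can bind other transcripts.

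Acot1 differed by 2.98 and 3.30 log2 between deficient and control mucosa within the arrays of low and of high spike-in signal, and Acadl by 1.87 and 0.81. Control tumours, both of low spike-in signal, differed from the 1 control mucosa array of that class by 3.44 log2 for Acot1, -2.97 for Acaa1b, -2.17 for Angptl4 and -1.02 for Acadm. Deficient tumours were below deficient mucosa in both classes for Acaa1b (-3.73 in the low and -2.31 in the high class) and for Angptl4 (-1.86 and -2.92). Without control tumour replicate 2, the array with the high Gapdh ratio, the Acot1, Angptl4, Acaa1b and Acadm calls in control mice were all kept.

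The rest of the pathway was followed with lists of genes that leave the 9 out. The background for the counts of these and later lists was 21.2% of all genes higher and 7.64% lower in control tumours. In deficient tumours it was 2.45% and 1.75%, and with HAI-1 loss in mucosa 0.899% and 0.152%. Of 14 other peroxisomal genes, 11 were tested. In control tumours 7 of 11 fell and none rose, with a median of -0.91 log2 against 0.24 over all genes. In deficient tumours 3 of 11 fell and none rose, with a median of -0.83 against 0.18. All 11 differences were below 0 in both genotypes. Those with the largest falls in control tumours were Decr2, a dienoyl-CoA reductase (-2.03 ± 0.34 log2, adjusted p = 0.00598), Acaa1a, described above, Acot4, a peroxisomal thioesterase (-1.73 ± 0.30, adjusted p = 0.00614), and Acot8, another (-1.51 ± 0.33, adjusted p = 0.0139). In deficient tumours Acaa1a, Acot4 (-1.82 ± 0.30, adjusted p = 0.0303) and Hsd17b4, a second bifunctional enzyme (-1.28 ± 0.28, adjusted p = 0.0491), fell. Acaa1a, the close copy of the member Acaa1b, and Hsd17b4 were read by probe sets ending in _x_at, which can bind other transcripts. The same holds for Acadsb and Ttr, which are described below. The count in control tumours was 3 of 11 without any 1 of the 4 arrays compared, and that in deficient tumours was 0 of 11 without any 1 of its own 4 arrays or of the control mucosa arrays, while all 11 differences stayed below 0.

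Of 17 tested other genes of mitochondrial beta-oxidation, 1 rose and 1 fell in control tumours. Acadsb, the dehydrogenase of short branched chains, rose by 1.37 ± 0.32 log2 (adjusted p = 0.0172), and Crat, carnitine acetyltransferase, fell by 1.40 ± 0.27 log2 (adjusted p = 0.00961). In deficient tumours limma called 0 of 17, with 4 at an unadjusted p under 0.05. The medians were -0.54 log2 in deficient mice and -0.61 in control mice, and 16 of 17 differences were below 0 in both. In mucosa, HAI-1 loss gave 0 calls among the 17 mitochondrial and 0 among the 11 peroxisomal genes (3 and 0 at an unadjusted p under 0.05), with medians of -0.04 and -0.18 log2.

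Of 14 tested other targets of PPAR-alpha, 2 rose and 3 fell in control tumours, beside 21.2% of all genes higher and 7.64% lower. Me1, malic enzyme, rose by 2.71 ± 0.58 log2 (adjusted p = 0.0135) and Mgll, monoglyceride lipase, by 1.50 ± 0.27 (0.00755). Vnn1, a pantetheinase, fell by 2.92 ± 0.51 log2 (0.00689), and the fatty acid transport proteins Slc27a2 and Slc27a4 by 1.54 ± 0.37 (0.0195) and 1.50 ± 0.36 (0.0194). In deficient tumours Slc27a2 alone of the 14 was called, where it fell by 2.83 ± 0.37 log2 (adjusted p = 0.0268). HAI-1 loss in mucosa gave 0 calls among these 14, with 3 at an unadjusted p under 0.05.

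The receptor gene Ppara had 8.62 and 8.03 log2 in deficient tumours, against 9.39 and 10.22 in deficient mucosa, and 8.58 and 8.78 in control tumours, against 8.86 and 9.83 in control mucosa. Its tumour arrays were all below the mucosa arrays, but the differences of -1.48 ± 0.43 log2 in deficient mice (adjusted p = 0.0921) and -0.67 ± 0.43 in control mice (adjusted p = 0.278) were not called. Of 10 tested receptors, partners and coregulators, Lpin1, which encodes the phosphatidate phosphatase and coactivator lipin 1, rose in control tumours by 1.58 ± 0.27 log2 (adjusted p = 0.00627). The coactivator gene Ppargc1a fell by 2.22 ± 0.30 log2 there (adjusted p = 0.00305), and the PPAR partner Rxra by 1.17 ± 0.25 (adjusted p = 0.0125). In deficient tumours 0 of 10 were called, with 5 at an unadjusted p under 0.05. Ppargc1a differed by -1.50 ± 0.30 log2 between deficient and control mucosa (adjusted p = 0.0651).

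The opposite pathway was measured as well. Of 9 tested genes of fatty acid synthesis, 4 rose and 1 fell in control tumours. Fasn, fatty acid synthase, rose by 2.17 ± 0.38 log2 (adjusted p = 0.00655), Scd1 by 2.59 ± 0.72 (0.0331), Scd2, another desaturase, by 1.98 ± 0.34 (0.00648) and Acly, ATP citrate lyase, by 1.41 ± 0.28 (0.0104). Mlxipl, the glucose-sensing transcription factor ChREBP, fell by 1.43 ± 0.27 log2 (0.00917) in control tumours and by 1.81 ± 0.27 log2 in deficient tumours (adjusted p = 0.0287), where it was the 1 gene of the list called. In deficient mucosa 1 of 9 was called against control mucosa: Scd2 rose by 2.26 ± 0.34 log2 (adjusted p = 0.0397).

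Among partners of single members, 1 of 5 tested genes of lipoprotein lipase and its regulators rose and 1 fell in control tumours. Lpl, the lipase that Angptl4 inhibits, rose by 1.92 ± 0.49 log2 (adjusted p = 0.0244). Apoc3, which encodes an apolipoprotein that slows the same lipase, fell by 1.81 ± 0.52 log2 (0.0377). Beside Pdk4, 1 of 10 tested genes of the pyruvate dehydrogenase complex and its regulators rose and 1 fell in control tumours. The kinase gene Pdk3 fell by 1.57 ± 0.30 log2 (0.00913) and the phosphatase gene Pdp1 rose by 1.46 ± 0.26 log2 (0.00711). The background there was 21.2% of all genes higher and 7.64% lower. In deficient tumours limma called 0 of the 5 and 0 of the 10, with 2 and 1 at an unadjusted p under 0.05. Of 7 other tested thioesterase genes, Acot12, a cytosolic acetyl-CoA hydrolase, fell by 2.23 ± 0.42 log2 in deficient tumours (adjusted p = 0.038) and by 2.73 ± 0.42 log2 in control tumours (adjusted p = 0.0045), and no other member of that list was called in these comparisons. None of 3 tested ketone body enzymes was called in any comparison by limma, with 1 at an unadjusted p under 0.05 in control tumours and 0 in deficient tumours. Of 10 hypoxia-induced genes, a set to which Angptl4 is often counted, Slc2a1 and Car9 rose with HAI-1 loss in mucosa, by 1.97 ± 0.32 log2 (adjusted p = 0.0443) and 1.77 ± 0.26 (0.0395). All 10 had positive differences there (median 0.86 log2, 6 at an unadjusted p under 0.05), whereas Angptl4 itself had -0.18. In control tumours 2 of the 10 rose and 1 fell, and in deficient tumours limma called 0, with 1 at an unadjusted p under 0.05.

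**Figure D3:**
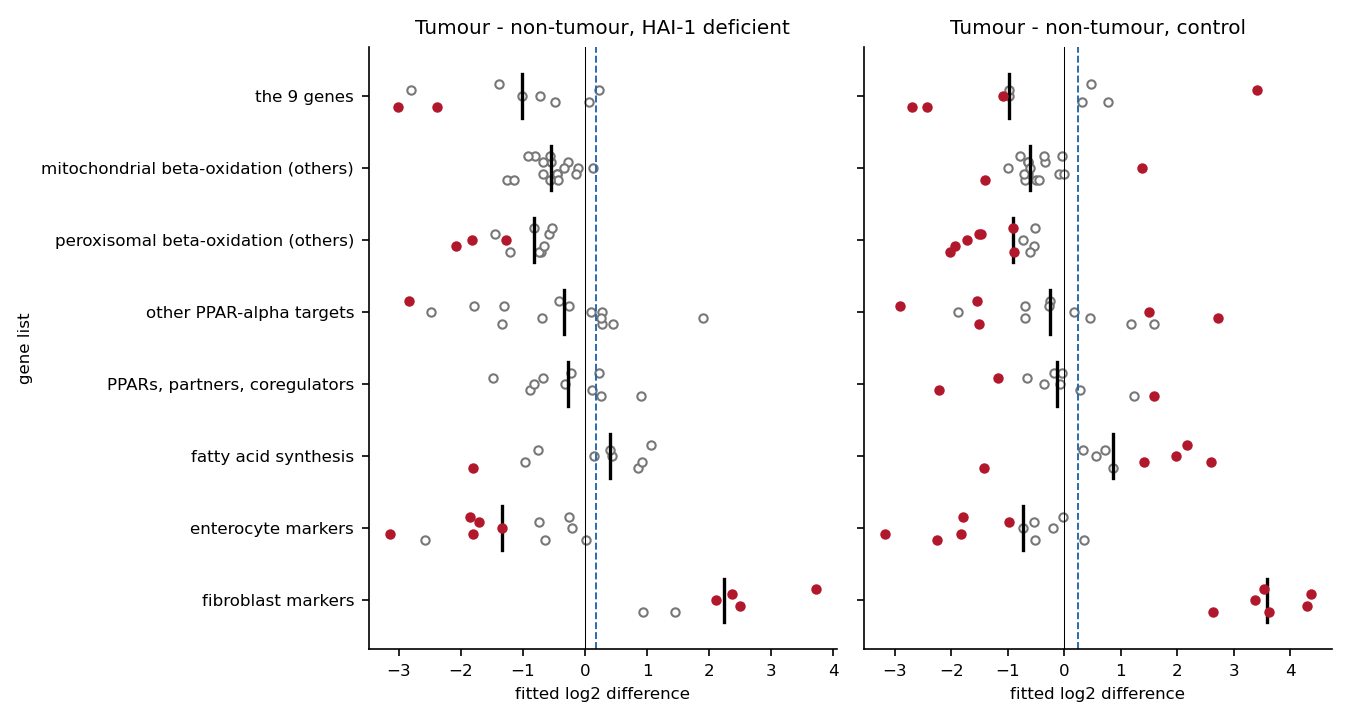
Fitted log2 differences between tumour and non-tumour tissue for the 9 genes, the other lists of the pathway and 2 lists of cell markers, in HAI-1 deficient mice (left) and control mice (right); each point is a gene, red where called at an adjusted p under 0.05, black bars are list medians and the dashed line is the median of all tested genes. All 11 other peroxisomal genes lie below 0 in both panels, and all 6 fibroblast markers lie above 0.

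Markers of cell types moved in the same comparisons. The background was 21.2% of all genes higher and 7.64% lower in control tumours, and 2.45% and 1.75% in deficient tumours. Of 11 tested enterocyte markers, 5 fell and 0 rose in both genotypes, with medians of -1.34 log2 in deficient and -0.74 in control tumours. Anpep, aminopeptidase N of the brush border, fell by 3.14 ± 0.66 log2 in deficient tumours (adjusted p = 0.0479) and by 3.17 ± 0.66 in control tumours (adjusted p = 0.0123). Fibroblast markers rose in 4 of 6 in deficient and 6 of 6 in control tumours. The log2 of their summed linear signals was 14.23 to 14.28 in deficient tumours and 14.68 to 14.81 in control tumours. In mucosa it was 11.92 to 12.43 in deficient and 10.93 to 11.13 in control mice. Smooth muscle markers rose in 2 of 6 in deficient and 6 of 6 in control tumours. The log2 of their summed linear signals was 12.48 to 13.37 in deficient and 12.76 to 13.66 in control tumours. In the mucosa of the same genotypes it was 10.69 to 11.20 and 9.81 to 10.01. Stem cell markers rose in 2 of 7 in deficient and 5 of 7 in control tumours, among them Lgr5, the receptor that marks crypt base stem cells (2.61 ± 0.48 log2, adjusted p = 0.0366, and 3.42 ± 0.48, adjusted p = 0.00344). The log2 of the summed linear signals of the stem cell markers was 13.48 to 14.40 in deficient and 13.88 to 14.21 in control tumours. In mucosa it was 12.28 to 13.23 in deficient and 12.89 to 13.61 in control mice, where Olfm4 was the brightest (11.38 to 13.33 over both). T cell markers fell in 1 of 3 in deficient and 2 of 3 in control tumours, and Cd8a, a coreceptor of cytotoxic T cells, fell in both (by 1.38 ± 0.26 log2, adjusted p = 0.0377, and by 1.57 ± 0.26 log2, adjusted p = 0.00563). Hepatocyte markers rose in 2 of 3 in both genotypes. These were Ttr, which encodes transthyretin (2.09 ± 0.41 log2 in deficient tumours, adjusted p = 0.0411, and 3.70 ± 0.41 in control tumours, adjusted p = 0.00178), and Alb, which encodes albumin (2.78 log2, adjusted p = 0.0402, and 4.35 log2, adjusted p = 0.00136, both sizes with signals below the filter value raised to it), while the hepatocyte markers Fgb and Ahsg were below that value on all 8 arrays. Goblet cell markers rose in 1 of 7 in deficient and 2 of 7 in control tumours, Paneth cell markers in 0 of 3 and 1 of 3, and of 6 macrophage markers and 1 exocrine pancreas marker limma called 0 in either genotype, with 1 macrophage marker and 0 pancreas markers at an unadjusted p under 0.05 in each. Without 1 array at a time, the calls in deficient tumours were 0 to 3 enterocyte, 0 to 4 fibroblast, 0 to 1 smooth muscle, 0 to 1 stem cell, 0 T cell, 0 hepatocyte and 0 goblet cell markers, and in control tumours 1 to 5 enterocyte, 6 fibroblast, 5 to 6 smooth muscle, 5 to 6 stem cell, 1 to 2 T cell, 2 hepatocyte and 1 to 2 goblet cell markers. The part of these cell types in the members' differences was not tested.

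In mucosa, where Acot1 rose with HAI-1 loss, 0 of 11 enterocyte markers were called by limma, with 0 at an unadjusted p under 0.05, and their median difference was -0.03 log2. All 6 fibroblast markers had an unadjusted p under 0.05 there, 5 with a positive difference and Lum with a negative one (-1.37 ± 0.46 log2, or -0.97 with signals below the filter value raised to it), but none was called (smallest adjusted p = 0.0701), and their median was 1.28 log2. The 6 smooth muscle markers all had positive differences (median 0.97 log2, 3 at an unadjusted p under 0.05), and the 3 tested T cell markers all had negative ones (median -1.11, 2 at an unadjusted p under 0.05). Of 3 tested hepatocyte markers 2 had positive differences with an unadjusted p under 0.05, and of 7 stem cell markers 6 had positive differences, 1 of all 7 at an unadjusted p under 0.05. None of these was called, and the part of these cell types in the Acot1 difference was not tested. Adipocytes also express several of the 9 genes. Their defining markers Adipoq and Lep were below the filter value on all 8 arrays. Of the 5 tested adipocyte markers, which epithelium or other cells also express, Fabp4, a fatty acid binding protein, rose in deficient mucosa by 3.03 ± 0.37 log2 (adjusted p = 0.0348). In control tumours Fabp4 (3.40 ± 0.37, adjusted p = 0.00171) and Cidea (at least 3.95-fold, adjusted p = 0.0269) rose, and Lipe, Cidec and Pck1 fell (-3.29 ± 0.64, -2.41 ± 0.48 and -3.23 ± 0.82 log2). The log2 of the summed linear signals of the adipocyte list was 11.28 to 11.76 in deficient tumours and 11.33 to 11.57 in control tumours. In mucosa, where Cidec and Pck1 were the brightest of the list, it was 12.62 to 13.31 in deficient and 12.89 to 13.47 in control mice.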

How the data were processed

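The deposited values of 45101 probe sets on each array are on a log2 scale; per the submitters' processing notes the authors used MAS5 and RMA, in roles that the notes leave out. The values are of the MAS5 kind: each array had a linear trimmed mean of 500.003 to 500.004 and had 313 to 762 values of 0. They were used as deposited. Detection calls were not used, so signal over background is not known, low signals carry large errors, and 2 arrays per group limit the precision. Levels of different probe sets are not compared, except that the summed signals of a list weigh its brightest probe sets most.

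The annotation gave a single gene to 34958 probe sets, several to 932 and none to 9211. Probe sets with a mean under 5.20 log2 (36.8 linear, the 40th percentile) were left out, and the brightest single-gene probe set stood for its gene. limma 3.58.1 (R 4.3.3) fitted a mean per group over the 8 arrays (4 residual and 3.52 prior degrees of freedom), for 5 contrasts. The script was tested on simulated data. In the analyses without an array, a lone array was assumed to vary like the other groups.

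All members and Spint1 were named. Of each list, up to 4 called genes in each direction were named, or up to 2 as values where none was called, and up to 3 genes most like each member. Ppara was added as the receptor, whatever its values. The members and lists were chosen with earlier results of these data known. Upstream sequences and gene positions come from RefSeq, GRCm38.p6. Figures were drawn with python 3.11.15.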

Additional observations from a re-analysis of the deposited data

How the results depend on the processing

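The number of genes called with HAI-1 loss in mucosa (138) was 46 after quantile normalization, 0 with no filter, 331 with the filter at the 60th percentile, 279 with low values raised to the filter value, 24 with the mean of a gene's probe sets, 19 with each probe set by itself, 361 with a variance trend and robust moderation, 46 with only the groups compared and 84 with the replicate block, and 0 to 171 without 1 array. Of the members, 1 was called; the count was 0 with no filter, 2 with the trend (Acadl joined) and 0 to 1 without 1 array. In control tumours 3777 genes were called, 2464 with no filter and 1945 to 3767 without 1 array, and 2 to 4 members without 1 array. In deficient tumours 551 genes were called, against 0 with no filter, 959 at the 60th percentile, 1000 with low values raised, 205 with the mean of probe sets, 158 with each probe set, 995 with the trend, 0 with only the groups compared, 341 with the replicate block and 0 to 346 without 1 array. The 2 members called there were 0 with no filter, with each probe set or with only the groups compared, 1 with the mean of probe sets and 0 to 1 without 1 array. No label ties arrays of the same replicate number to 1 mouse or batch, and the r of replicate differences between groups was -0.19 to 0.26, so the numbers were not taken as pairs; of the members' calls the block changed that of Pdk4 in deficient tumours (adjusted p = 0.0393). Quantile normalization changed no member's call and moved the median difference of all genes from 0.24 to 0.15 log2 in control tumours; all 11 other peroxisomal genes stayed below 0.

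Differences that changed sign were not called in either setting, and the cause was not tested. With the mean of probe sets, Angptl4 was 1.18 log2 for HAI-1 loss in mucosa, -0.61 in tumours and -1.79 for the difference between tissues; Acadl, Acot2 and Cpt1a were -0.19, 0.22 and -0.49 for HAI-1 loss in tumours, Acot2 -0.63 in control tumours and Cpt1a -0.47 in deficient tumours. With the spike-in class as a term, HAI-1 loss in tumours gave -0.34 for Angptl4, -0.055 for Acadl and -0.47 for Pdk4, and Angptl4 -0.16 between tissues; quantile normalization gave -0.014 for Angptl4 in tumours. Without 1 array, HAI-1 loss in mucosa ran from -0.073 to 0.999 for Acaa1b and -0.89 to 0.54 for Angptl4. In tumours it ran from -0.11 to 0.27 for Acadl, -0.80 to 0.54 for Acaa1b, -0.051 to 0.33 for Angptl4, -0.52 to 1.09 for Pdk4, -0.70 to 0.24 for Acot2 and -0.22 to 0.13 for Acot1. Acot2 in control tumours ran from -0.035 to 0.98, Cpt1a in deficient tumours from -0.064 to 0.21, and between tissues Ehhadh from -0.40 to 0.31, Acaa1b from -1.26 to 0.081 and Angptl4 from -0.40 to 1.03. Settings for the lists were added after seeing the data: the other peroxisomal genes called were 5 in control and 1 in deficient tumours with the spike-in term.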
